A study of Mus musculus with 15 samples.

Results

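Krüppel-like factor (KLF) genes encode zinc finger transcription factors, and 10 of them were followed here in NIH3T3, an established fibroblast line from mouse embryos. *Klf2*, *Klf3*, *Klf4*, *Klf5*, *Klf6*, *Klf7*, *Klf9*, *Klf10*, *Klf13* and *Klf16* were taken by name from the 55266 genes to which the deposited transcripts could be summed. They were chosen with earlier results of these data known. The series asks which transcription depends on mTORC1, a growth-controlling kinase complex, inside the nucleus. Every library came from a stable line with a doxycycline-inducible histone H2A fusion, and all cells were starved first. The 4 control groups carried H2A-mCherry and received no PDGF, PDGF, rapamycin with PDGF, or cycloheximide with PDGF. The fifth group carried H2A-TerminaTOR, an mTORC1 inhibitor held on chromatin by the histone, and received cycloheximide with PDGF. Each group had 3 libraries. PDGF is a growth factor for fibroblasts, rapamycin inhibits mTORC1 in the whole cell, and cycloheximide stops translation. The sources used here give no doses or times. TerminaTOR was present only under cycloheximide and only in its own line, so an effect of nuclear inhibition and a difference between the lines cannot be told apart. Libraries of a group are not said to come from separate cultures, so p-values cover only the spread of these libraries, which may be technical.

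KLF proteins bind GC-rich and CACCC sequences through a conserved block of zinc fingers at the end of the protein, and they differ in the cofactors that the rest of the protein recruits. KLF2, KLF4, KLF5, KLF6 and KLF7 bind acetyltransferases and act largely as activators, although KLF4 can also repress. KLF3 recruits the corepressor CtBP, and KLF9, KLF10, KLF13 and KLF16 recruit the corepressor Sin3A. Several KLF genes are early response genes in fibroblasts, transcribed soon after serum or a growth factor is added, and many of their RNAs and proteins turn over fast.

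The genes are all protein-coding and lie on 10 different chromosomes of GRCm38, in the coordinates of GENCODE M21. The activators are *Klf2* on chromosome 8 (72319033 to 72321656, plus strand), *Klf4* on chromosome 4 (55527143 to 55532466, minus strand), *Klf5* on chromosome 14 (99298691 to 99315036, plus strand), *Klf6* on chromosome 13 (5861482 to 5870394, plus strand) and *Klf7* on chromosome 1 (64029447 to 64122282, minus strand). The repressors are *Klf3* on chromosome 5 (64803388 to 64832901, plus strand), *Klf9* on chromosome 19 (23141226 to 23168134, plus strand), *Klf10* on chromosome 15 (38291463 to 38300706, minus strand), *Klf13* on chromosome 7 (63886351 to 63938915, minus strand) and *Klf16* on chromosome 10 (80567124 to 80577321, minus strand).

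Promoter sequence is shown for 4 genes whose RNA carries the results below. *Klf2* and *Klf6* were the genes that cycloheximide raised, and *Klf4* and *Klf9* had the most alike profiles among the well-counted genes. The RefSeq promoter table (GRCm38.p6) held 7 of the 10 genes, all but *Klf5*, *Klf10* and *Klf16*. Each run below is the sequence before the gene's start, 5′ to 3′ on the gene's strand, and stops at the first base of the gene in the GENCODE annotation where that lies earlier. Capitals mark matches on either strand to TGACG (the core of a CREB site), TGANTCA (an AP-1 site), GTAAACA (a FOXO site) and the MEF2 box, searched on both strands. The *Klf6* run has none of these and is all in lower case.
Klf2, chr8:72318812-72319032, plus strand: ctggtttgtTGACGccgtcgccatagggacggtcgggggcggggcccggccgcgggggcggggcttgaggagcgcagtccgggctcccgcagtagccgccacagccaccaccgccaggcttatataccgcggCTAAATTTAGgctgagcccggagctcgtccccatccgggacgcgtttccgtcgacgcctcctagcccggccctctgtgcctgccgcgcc
Klf6, chr13:5861239-5861481, plus strand: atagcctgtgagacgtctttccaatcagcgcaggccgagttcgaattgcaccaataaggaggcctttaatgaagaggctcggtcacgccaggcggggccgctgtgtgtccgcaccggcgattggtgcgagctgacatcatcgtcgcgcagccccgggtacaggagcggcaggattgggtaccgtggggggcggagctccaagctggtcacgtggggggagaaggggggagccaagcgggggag
Klf4, chr4:55532476-55532725, minus strand: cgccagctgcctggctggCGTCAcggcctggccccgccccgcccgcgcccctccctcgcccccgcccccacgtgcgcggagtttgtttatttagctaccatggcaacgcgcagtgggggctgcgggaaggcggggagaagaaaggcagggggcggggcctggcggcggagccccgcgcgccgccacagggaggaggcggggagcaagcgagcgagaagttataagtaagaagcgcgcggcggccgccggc
Klf9, chr19:23140976-23141225, plus strand: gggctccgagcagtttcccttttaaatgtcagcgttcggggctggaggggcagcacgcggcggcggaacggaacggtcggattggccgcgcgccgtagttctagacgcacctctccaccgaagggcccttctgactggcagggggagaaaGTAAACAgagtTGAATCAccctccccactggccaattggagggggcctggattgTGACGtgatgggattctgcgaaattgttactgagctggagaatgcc

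The MEF2 box of *Klf2* lay 118 to 109 bases before the RefSeq start and was the only such match among the 7 genes, against 2.92% of all 32851 windows of 250 bases. TGACG occurred in 4 of the 7 genes, in *Klf2*, *Klf4*, *Klf9* and *Klf13*, against 17.8% of all windows. *Klf9* alone held TGANTCA (6.75% of windows), 89 to 83 bases before its start, and GTAAACA (3.17%), 100 to 94 bases before it. The GC box GGGCGG, which SP and KLF proteins bind, occurred in 6 of the 7, all but *Klf9* (32.7% of windows), and CACCC in 5 (52% of windows). The searched windows of *Klf2*, *Klf3*, *Klf6* and *Klf7* ran into the gene as GENCODE annotates it, furthest for *Klf3* and *Klf7*. Some of their matches may therefore lie inside the gene. No window of these 7 genes held TATAAA or a CArG box, the core of the serum response element. None held TGACGTCA either, the full site that includes the CREB core. Their GC content ran from 59.2% to 78.4%, against a median of 52.4% over all windows. A match describes letters only, and binding was not measured.

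Total counts per library ran from 3466202 to 6777780, and mitochondrially encoded genes took 6.28% to 12.2% of them. Levels are given as CPM, the counts of a gene relative to its library's total after TMM scaling, which compares libraries by a trimmed mean of gene-wise ratios. The deposited counts are per transcript, and reads shared by overlapping transcripts were mostly not counted. A single transcript gave 97.9% to 100% of the reads of 9 of the genes. *Klf10* was the exception, with 254 reads in all 15 libraries over 5 overlapping transcripts, and its values rest on few reads throughout. The labelled cell type was checked by 13 fibroblast markers, whose summed level was 4739 to 9162 CPM per library. Most of it came from *Col1a1*, *Col1a2* and *Col3a1*, with means of 4395, 2830 and 950 CPM without PDGF, where the sum averaged 8496 CPM. *Postn* had 2 to 21 reads per group, *Fap* had no read in 4 groups and *Pdgfrb* none in 1. Summed markers of endothelial (1.31 to 4.74 CPM), epithelial (0.475 to 4.39 CPM) and macrophage cells (6.72 to 26.1 CPM) were low, with 2 to 6 of 7, 2 to 4 of 7 and 3 to 5 of 8 genes at 0 reads in a group. Smooth muscle markers summed to 53.8 to 186 CPM, with the defining genes *Myh11* and *Myocd* at 0. Since shared reads were mostly lost, a low or 0 count does not show that a gene was silent or a cell type absent. In bulk RNA, fewer cells of a type and less RNA per cell cannot be told apart.

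PDGF moved all 10 genes. 9 were higher with PDGF than without and *Klf3* was lower, at an adjusted p under 0.05 (quasi-likelihood test of edgeR, Benjamini-Hochberg adjustment over 10603 genes). Of all genes tested, 37.0% were called in this comparison, 20.1% higher and 16.9% lower. The median log2 change of the 10 genes was 1.63, against -0.01 over all genes tested. The libraries of the 2 groups did not overlap for any of the 10, against 46.2% of all genes. Because the 10 were chosen with earlier results of these data known, their shares here and below are no independent test of the family. Of the other KLF genes tested, *Klf11* (edgeR adjusted p = 0.103) and *Klf12* (0.991) were not called with PDGF. Summed macrophage markers stood at 16.0 to 18.9 CPM with PDGF and 6.72 to 11.3 CPM without, with *Adgre1*, *Csf1r*, *Itgam*, *Ptprc* and *Tyrobp* at 0 in both. Most of each sum was *Cd14*, at a mean of 12.6 CPM with PDGF and 6.19 CPM without. The part of these markers in the KLF changes was not tested.

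Among the activators, *Klf4*, which is known from reprogramming of fibroblasts to pluripotency, rose the most. It measured 198, 193 and 169 CPM without PDGF and 1035, 1116 and 1114 CPM with it. All 3 PDGF libraries lay far above the 3 without, and the gene rose 5.83-fold (log2 2.54 ± 0.06 SE, edgeR adjusted p = 2.89e-46). *Klf6*, an early response gene in many cell types, measured 398, 390 and 402 CPM without PDGF and 1535, 1606 and 1562 CPM with it. Its libraries within a group were close, with an SD of 6.36 and 36.1 CPM, and the rise was 3.95-fold (1.98 ± 0.06, adjusted p = 2.81e-34). *Klf5*, which favours proliferation in epithelia and smooth muscle, measured 62.5, 75.7 and 57.2 CPM without PDGF and 245, 245 and 231 CPM with it. That was a 3.70-fold rise (1.89 ± 0.08, adjusted p = 3.93e-32) with a wide gap between the groups.

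*Klf2*, a flow-responsive gene of endothelium, measured 34.0, 36.7 and 28.8 CPM without PDGF. With PDGF it stood at 80.7, 99.8 and 91.8 CPM, 2.75-fold higher (1.46 ± 0.09, adjusted p = 2.45e-23). *Klf7*, best known from neurons, went from 188, 193 and 217 CPM to 451, 452 and 440 CPM. The rise of 2.25-fold (1.17 ± 0.07, adjusted p = 1.95e-24) was the smallest among the activators.

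The genes of Sin3A-binding repressors rose too. *Klf9*, a target of the glucocorticoid receptor, measured 188, 236 and 172 CPM without PDGF and 740, 778 and 722 CPM with it, a 3.77-fold rise (1.91 ± 0.08, adjusted p = 3.94e-23). *Klf16*, a GC-box binding repressor, measured 319, 275 and 215 CPM and then 814, 878 and 876 CPM. It rose 3.18-fold (1.67 ± 0.09, adjusted p = 3.08e-15), although the libraries without PDGF spread widely (SD 52.7 CPM). *Klf13*, known for activating the chemokine gene *Ccl5* in T cells, went from 167, 179 and 165 CPM to 417, 398 and 380 CPM. That was 2.34-fold (1.22 ± 0.07, adjusted p = 1.89e-24). *Klf10*, an early gene of TGF-beta signalling, had 18 reads in the 3 libraries without PDGF and 44 with it. They stood at 0.545, 2.40 and 0.748 CPM against 5.78, 2.58 and 2.69 CPM, so the highest library without PDGF lay just under the lowest with it. Its call (1.59 ± 0.52, adjusted p = 0.011) was lost when replicate 1 (adjusted p = 0.0822) or 3 (0.0537) of the unstimulated group was left out, or replicate 1 of the PDGF group (0.138), and when only its most counted transcript was used (0.297). Leaving out replicate 2 of the group without PDGF instead raised its log2 change to 2.45.

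*Klf3*, the gene of the CtBP-binding repressor, moved the other way. It measured 381, 411 and 394 CPM without PDGF and 248, 271 and 231 CPM with it, and the highest PDGF library lay well below the lowest library without. The fall was 1.58-fold (-0.66 ± 0.07, adjusted p = 2.59e-12).

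**Figure D1:**
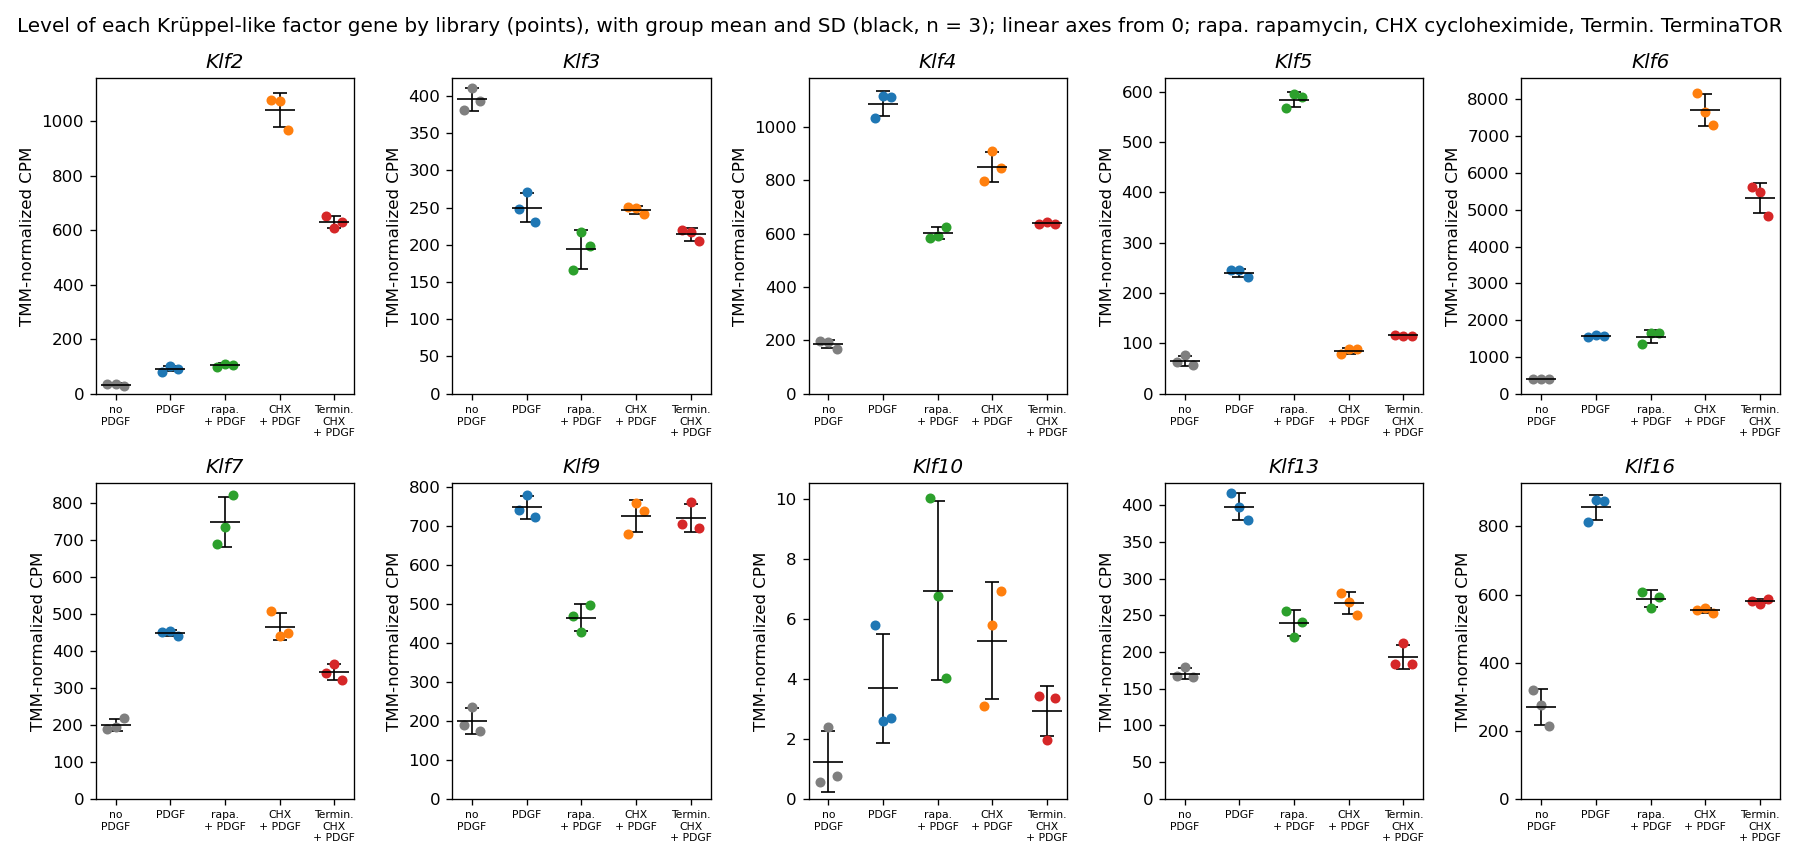
Levels of the 10 KLF genes in every library, in TMM-normalized CPM on linear axes from 0, one panel per gene and one column per group, with the mean and SD of the 3 libraries in black. *Klf2* and *Klf6* are highest under cycloheximide, *Klf5* under rapamycin (567 to 596 CPM), *Klf3* without PDGF, and the *Klf10* panel spans under 11 CPM.

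Genes around the KLF family were called with PDGF in both directions, as were all genes tested. Of these, 37.0% were called, 20.1% higher and 16.9% lower, with a median log2 change of -0.01. A list of 16 early growth factor response genes checked that PDGF had acted, and 15 rose and none fell (median log2 3.65). Of 19 genes of KLF cofactors and ubiquitin ligases, 16 were tested, 6 rose and 3 fell (median 0.27). They included *Fhl3*, a LIM-domain cofactor (1.30 ± 0.18), *Wwp1*, a ligase that acts on KLF2 and KLF5 (1.02 ± 0.26), and the deacetylase gene *Hdac2*, which fell (-1.05 ± 0.19). Of 21 listed upstream regulators, 18 were tested, 8 rose and 4 fell (median 0.37). *Smad3*, a TGF-beta effector, rose (1.17 ± 0.06) and *Foxo1*, a forkhead factor that growth factor signalling holds out of the nucleus, fell (-1.33 ± 0.14). *Egr1*, an early zinc finger factor, rose from 6 to 18 reads per group (1.86 ± 0.72, edgeR adjusted p = 0.0346). Of 29 genes reported as KLF targets in 1 cell type or another, 19 were tested, 8 rose and 4 fell (median 0.08). *Thbd*, the gene of thrombomodulin and a known target of KLF2 and KLF4 in endothelium, rose (1.79 ± 0.06), as did *Odc1* (1.58 ± 0.21), of polyamine synthesis, and *Plaur* (2.15 ± 0.49, 14 and 51 reads per group), the urokinase receptor gene.

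Rapamycin on top of PDGF divided the family. *Klf5* and *Klf7* were higher than with PDGF alone, *Klf3*, *Klf4*, *Klf9*, *Klf13* and *Klf16* were lower, and *Klf2*, *Klf6* and *Klf10* were not called. Of all genes tested, 32.3% were called, 16.3% higher and 16.1% lower. The median log2 change was -0.19 over the 10 genes and 0.02 over all. The libraries did not overlap for 7 of the 10, against 40.9% of all genes. Fibroblast markers also stood lower, at a summed 4739 to 5131 CPM against 7342 to 7659 CPM with PDGF alone (6 of 10 tested fell and 3 rose), and 8 of 12 mitochondrially encoded genes were higher. Their part in the KLF changes was not tested.

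*Klf5* measured 567, 596 and 590 CPM with rapamycin, against at most 245 CPM with PDGF alone. It was 2.43-fold higher (1.28 ± 0.07, edgeR adjusted p = 5.4e-25), the largest change of a KLF gene with rapamycin. *Klf7* measured 689, 734 and 821 CPM, all above the highest PDGF library at 452 CPM, and was 1.67-fold higher (0.74 ± 0.07, adjusted p = 1.62e-15). Both are activators, and both had already risen with PDGF.

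The other activators did not follow them. *Klf4* stood at 584, 592 and 627 CPM, below every PDGF library, and was 1.81-fold lower (-0.86 ± 0.06, adjusted p = 2.27e-20). *Klf6* measured 1348, 1655 and 1638 CPM, which overlapped the PDGF libraries, and its log2 difference was -0.02 ± 0.06 (adjusted p = 0.85). With scaling by library size alone it was called lower (-0.15, adjusted p = 0.0317). *Klf2* measured 97.5, 110 and 105 CPM, a log2 difference of 0.20 ± 0.08 (adjusted p = 0.0543). It was called higher without replicate 2 of the PDGF group (adjusted p = 0.0219), without replicate 1 of the rapamycin group (0.0286) and when the most counted transcript stood for each gene (0.0416).

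3 of the 4 genes of Sin3A-binding repressors fell. *Klf13* measured 256, 220 and 241 CPM, 1.66-fold lower than with PDGF alone (-0.73 ± 0.07, adjusted p = 6.23e-14). *Klf9* measured 469, 428 and 495 CPM, 1.61-fold lower (-0.68 ± 0.07, adjusted p = 5.57e-10). *Klf16* measured 609, 560 and 594 CPM, 1.46-fold lower (-0.54 ± 0.08, adjusted p = 6.18e-06). None of these 3 overlapped its PDGF libraries. *Klf10*, with 75 reads between 4.04 and 10.03 CPM, was not called (0.92 ± 0.43, adjusted p = 0.0964). It passed without replicate 1 of the PDGF group (0.033) or replicate 3 of the rapamycin group (0.0418). *Klf3* fell further, to 166, 218 and 199 CPM (-0.37 ± 0.08, adjusted p = 5.9e-05), below all PDGF libraries.

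Set against no PDGF, with which the PDGF comparison shares its control libraries, 9 of the 10 genes were higher with rapamycin and PDGF and *Klf3* was lower, where 53.3% of all genes were called, 27.8% higher and 25.5% lower. Libraries did not overlap for any of the 10, against 56.3% of all genes. *Klf5* stood highest above it (log2 3.17 ± 0.08), *Klf7* 3.75-fold (1.91 ± 0.07), *Klf4* 3.22-fold (1.69 ± 0.06) and *Klf13* 1.41-fold (0.49 ± 0.07). *Klf13* was no longer called with scaling by library size (0.11, edgeR adjusted p = 0.167), and *Klf16* went from 1.12 to 0.74 (log2) under it. *Klf3* stood 2.04-fold lower (-1.03 ± 0.07). The lower levels of *Klf4*, *Klf9*, *Klf13* and *Klf16* with rapamycin therefore remained above those of cells without PDGF.

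The related lists were read against the 32.3% of all genes called with rapamycin, 16.3% higher and 16.1% lower. Of the 16 cofactor and ligase genes tested, 3 rose and 2 fell (median -0.04), among them *Hdac2* (0.89 ± 0.20), *Sap30*, a Sin3 complex subunit (-0.60 ± 0.14), and *Ep300*, the acetyltransferase p300 (-0.49 ± 0.07). Of the 18 upstream regulators, 4 rose and 2 fell (median 0.09). *Mef2d*, of the MEF2 family, fell (-0.85 ± 0.08), and *Smad3* (0.66 ± 0.06) and *Creb1*, the gene of CREB (0.59 ± 0.11), rose. Of the 19 reported targets, 8 rose and 9 fell (median -0.10). The largest changes were in thinly counted genes, namely *Dusp1*, a MAP kinase phosphatase (-2.16 ± 0.52, 46 reads with PDGF and 9 with rapamycin), *Cdkn1a*, the cell cycle inhibitor p21 (1.97 ± 0.43, 30 and 105 reads), and *Ccne1*, cyclin E1 (-1.30 ± 0.39, 70 and 25 reads).

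Cycloheximide raised *Klf2* and *Klf6* to levels that no other group without it reached. It lowered *Klf5*, *Klf13*, *Klf16* and *Klf4*, and *Klf3*, *Klf7*, *Klf9* and *Klf10* were not called. Of all genes, 40.6% were called, 21.0% higher and 19.6% lower. The median log2 change was -0.03 over the 10 genes and 0.01 over all. Libraries did not overlap for 6 of the 10, against 50.6% of all genes. 7 of 12 mitochondrially encoded genes were lower in the same comparison and none was higher, and their part was not tested.

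*Klf2* measured 1080, 1074 and 968 CPM with cycloheximide, against 80.7 to 99.8 CPM with PDGF alone. That was 11.4-fold higher (3.52 ± 0.08, edgeR adjusted p = 1.22e-49). *Klf6* measured 8184, 7673 and 7315 CPM, against 1535 to 1606 CPM, 4.93-fold higher (2.30 ± 0.06, adjusted p = 2.12e-37). The groups lay far apart for both genes.

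*Klf5* went the other way and measured 78.0, 88.8 and 88.0 CPM, 2.83-fold lower than with PDGF alone (adjusted p = 9.32e-27). *Klf4* measured 798, 911 and 847 CPM, a smaller difference of 1.28-fold (-0.35 ± 0.06, adjusted p = 5.84e-07), with no overlap. *Klf7*, at 506, 441 and 448 CPM, overlapped its PDGF libraries (0.06 ± 0.07, adjusted p = 0.547). So the 5 activator genes took 3 courses, 2 higher, 2 lower and 1 not called.

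Among the repressors, *Klf16* measured 553, 561 and 546 CPM (-0.63 ± 0.08, adjusted p = 4.38e-07) and *Klf13* 281, 268 and 251 CPM (-0.58 ± 0.07, adjusted p = 1.07e-10), both below all their PDGF libraries. *Klf9*, at 678, 758 and 737 CPM, overlapped them (-0.04 ± 0.07, adjusted p = 0.669). It was called lower with scaling by library size (-0.18, adjusted p = 0.0203). *Klf3*, at 250, 250 and 241 CPM, differed by -0.01 ± 0.07 (adjusted p = 0.897). *Klf10*, at 3.10, 5.80 and 6.92 CPM from 74 reads, was not called (0.54 ± 0.43, adjusted p = 0.342).

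Against no PDGF, again with shared libraries, 9 genes were higher with cycloheximide and PDGF and *Klf3* was lower, where 47.4% of all genes were called, 24.6% higher and 22.8% lower. Libraries did not overlap for any of the 10, against 54.0% of all genes. *Klf2* stood 31.5-fold higher (4.98 ± 0.08) and *Klf6* 19.5-fold (4.28 ± 0.07). *Klf4* stood 4.56-fold, *Klf9* 3.65-fold, *Klf7* 2.33-fold, *Klf16* 2.05-fold and *Klf13* 1.56-fold higher, and *Klf3* was lower (-0.68 ± 0.07). *Klf5* was 1.31-fold higher (0.39 ± 0.09, edgeR adjusted p = 0.000104), and with scaling by library size this difference vanished and its sign turned (-0.002, adjusted p = 0.986). The same scaling moved *Klf13* from 0.64 to 0.25, *Klf16* from 1.04 to 0.65 and *Klf3* from -0.68 to -1.07 on the log2 scale, while the median of all genes moved to -0.40.

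Beside the lists under cycloheximide stand the 40.6% of all genes called, 21.0% higher and 19.6% lower (median 0.01). The cofactor and ligase list had 5 genes higher and 3 lower under cycloheximide (16 tested, median 0.10). *Sin3b*, a Sin3 corepressor, rose (1.32 ± 0.09), *Fbxw7*, a ligase that acts on KLF2 and KLF5, rose on few reads (1.09 ± 0.38, 38 and 92 reads), and *Smurf1*, a ligase of TGF-beta signalling, fell (-1.47 ± 0.54, 51 and 21 reads). Of the upstream regulators 6 rose and 4 fell (18 tested, median 0.11), with *Foxo3*, a forkhead factor, at 2.64 ± 0.06, *Foxo1* at 1.21 ± 0.14 and *Egr1* at 2.82 ± 0.45 (18 and 149 reads). Of the reported targets 4 rose and 6 fell (19 tested, median -0.05). *Thbd*, which had risen with PDGF, stood lower (-2.32 ± 0.06) where *Klf2* RNA was highest. Translation was stopped in that group, and KLF2 protein was not measured. *Birc5*, the mitotic gene of survivin, fell (-2.73 ± 0.50, 76 and 13 reads) and *Dusp1* rose (2.22 ± 0.31).

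**Figure D2:**
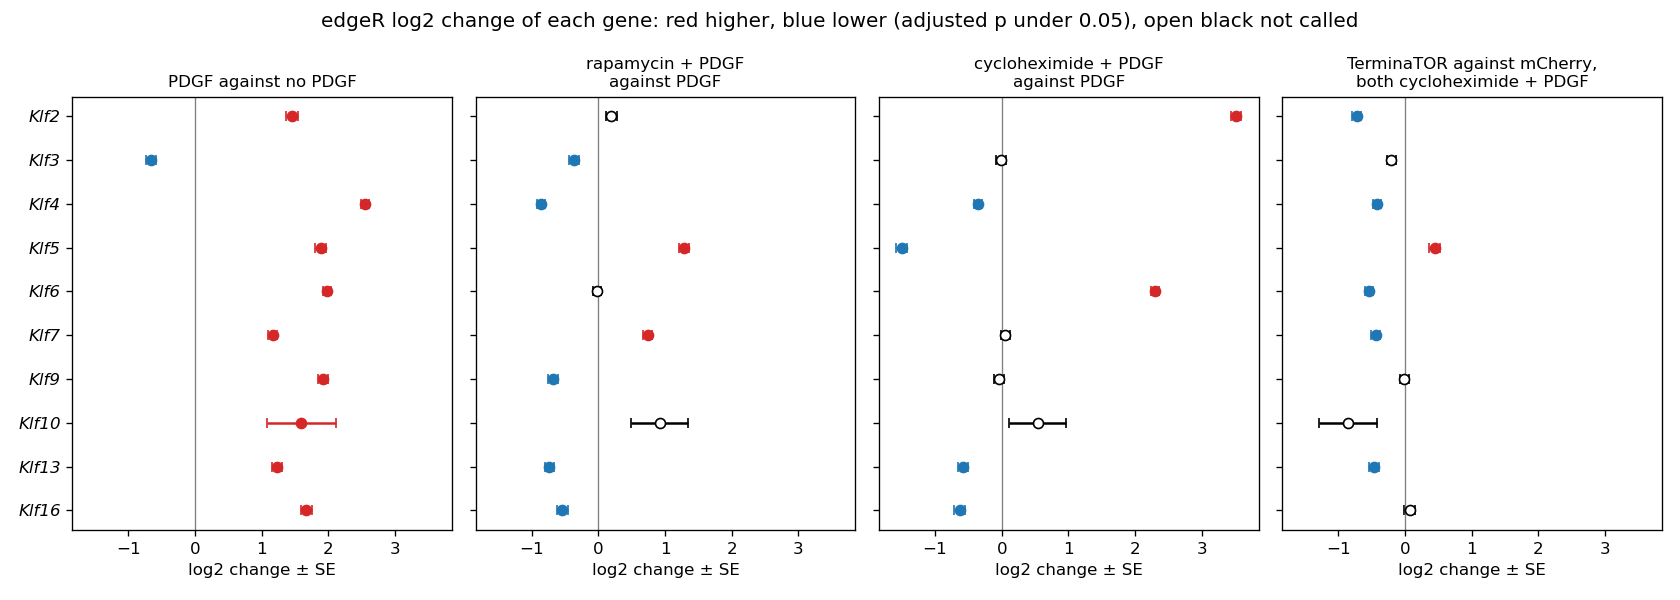
Log2 change ± SE of each KLF gene in 4 comparisons (3 libraries per group). Red and blue points passed edgeR's test as higher and lower and open points did not. With PDGF 9 of 10 are called to the right of 0, and with TerminaTOR 5 are called to the left of 0 and *Klf5* to the right.

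TerminaTOR was compared with mCherry under cycloheximide and PDGF, so that the lines differed while translation was stopped in both. *Klf2*, *Klf4*, *Klf6*, *Klf7* and *Klf13* were lower in TerminaTOR cells, *Klf5* was higher, and *Klf3*, *Klf9*, *Klf10* and *Klf16* were not called. Of all genes tested 4.92% were called, 2.35% higher and 2.57% lower. The median log2 change was -0.43 over the 10 genes and 0.00 over all genes. Libraries did not overlap for 8 of the 10, against 23.7% of all genes.

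All 5 activator genes were called. *Klf2* measured 654, 608 and 630 CPM in TerminaTOR cells, against 968 to 1080 CPM in mCherry cells, 1.65-fold lower (-0.72 ± 0.07, edgeR adjusted p = 2.58e-13). *Klf6* measured 5622, 5494 and 4840 CPM, against 7315 to 8184 CPM, 1.45-fold lower (-0.54 ± 0.06, adjusted p = 1.21e-09). The 2 genes that cycloheximide had raised were also the 2 with the largest called falls among these activators. The 2 comparisons share the mCherry libraries with cycloheximide, so this overlap is no independent result. Both genes stayed above their levels in the groups without cycloheximide.

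*Klf7* measured 340, 365 and 322 CPM, below all mCherry libraries (441 to 506 CPM), 1.36-fold lower (-0.44 ± 0.07, adjusted p = 1.8e-06). *Klf4* measured 638, 643 and 635 CPM, with an SD of 4.13 CPM and below all mCherry libraries, 1.33-fold lower (-0.41 ± 0.06, adjusted p = 4.04e-07). *Klf5* measured 117, 115 and 114 CPM against 78.0 to 88.8 CPM, 1.36-fold higher (0.45 ± 0.08, adjusted p = 8.6e-05). It was the only KLF gene called higher in this comparison.

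Of the repressor genes, *Klf13* was called, at 183, 212 and 184 CPM against 251 to 281 CPM (-0.46 ± 0.07, adjusted p = 3.36e-06). *Klf9* measured 704, 760 and 694 CPM, which overlapped the mCherry libraries (-0.01 ± 0.07, adjusted p = 0.971). *Klf16* measured 582, 573 and 586 CPM, just above the mCherry range of 546 to 561 CPM but not called (0.07 ± 0.08, adjusted p = 0.765). *Klf3* measured 220, 217 and 205 CPM, below the mCherry libraries without passing (-0.21 ± 0.07, adjusted p = 0.0983). It passed when only the 2 compared groups were fitted (adjusted p = 0.0269). *Klf10*, with 43 reads, was not called (-0.85 ± 0.43, adjusted p = 0.313).

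The related lists were read against the 4.92% of all genes called with TerminaTOR. Called were 1 of 16 cofactors and ligases (*Sin3b*, higher, 0.44 ± 0.08; list median -0.03) and 1 of 18 upstream regulators (*Tgfbr1*, a TGF-beta receptor, higher, 0.32 ± 0.10; median -0.02). Of the 19 reported targets 4 were higher and 1 was lower (median 0.12). *Plau*, the gene of urokinase, was 1.67-fold higher (0.74 ± 0.13), *Thbd* was 1.49-fold higher (0.58 ± 0.06), and the clock gene *Cry1* was lower (-0.36 ± 0.10). Of the 16 early response genes 2 were lower and none was higher (median -0.17). Fibroblast markers summed to 8633 to 9162 CPM in TerminaTOR cells and 7602 to 7939 CPM in mCherry cells, and smooth muscle markers to 179 to 186 and 143 to 158 CPM, with *Myh11* and *Myocd* at 0 in both. Nearly all of the smooth muscle sums was *Acta2*, at a mean of 181 CPM in TerminaTOR and 149 CPM in mCherry cells. The part of these differences in the KLF values was not tested.

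The rapamycin and TerminaTOR comparisons share no library, and the difference between their effects was tested directly. Of all genes tested 24.0% differed, 11.6% with a higher and 12.4% with a lower rapamycin effect. Among the 10 KLF genes 9 differed, and *Klf3* was not called (-0.16 ± 0.11, edgeR adjusted p = 0.298). *Klf7* moved in opposite directions, 0.74 with rapamycin and -0.44 with TerminaTOR, a difference of 1.18 ± 0.09 (adjusted p = 1.94e-17). *Klf2* was lower with TerminaTOR (-0.72) but measured 0.20 with rapamycin, a difference of 0.92 ± 0.10 (adjusted p = 2.81e-11). *Klf6* likewise measured -0.54 and -0.02, a difference of 0.52 ± 0.08 (adjusted p = 1.52e-06).

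*Klf5* was called higher and *Klf4* and *Klf13* lower with both. The sizes were unequal, 1.28 against 0.45 for *Klf5* (difference 0.84 ± 0.11, adjusted p = 2.72e-09) and -0.86 against -0.41 for *Klf4* (difference -0.44 ± 0.08, adjusted p = 2e-05). For *Klf13* the difference was small (-0.27 ± 0.10, adjusted p = 0.0415), and the call was lost in 8 of 20 other settings, 7 of which left out 1 library. The repressor genes *Klf9* and *Klf16* were lower with rapamycin and close to 0 with TerminaTOR, with differences of -0.68 ± 0.10 (adjusted p = 1.89e-06) and -0.61 ± 0.12 (0.000203). Rapamycin was given without cycloheximide and TerminaTOR with it, so the inhibitor, its location and the translation block cannot be told apart in this difference.

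**Figure D3:**
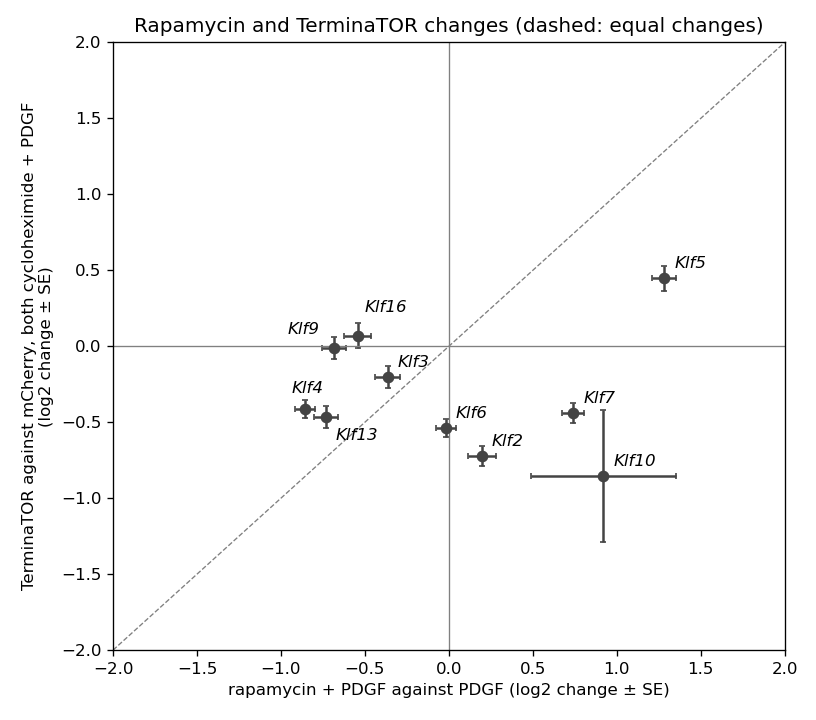
Log2 change ± SE of each KLF gene with rapamycin (x axis, against PDGF alone) and with TerminaTOR (y axis, against mCherry under cycloheximide and PDGF), with a dashed line where both are equal. *Klf7* lies at 0.74 and -0.44, *Klf5* at 1.28 and 0.45, and *Klf4* and *Klf13* are below 0 on both axes.

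The order of the groups differed between genes, although *Klf4* and *Klf9* shared one, as did *Klf7* and *Klf10*. *Klf2* ran from 33.1 ± 3.99 CPM without PDGF (SD, n = 3) through 90.7 ± 9.58 with PDGF, 104 ± 6.35 with rapamycin and 630 ± 23.0 with TerminaTOR to 1041 ± 62.8 with cycloheximide, and only the PDGF and rapamycin neighbours overlapped. *Klf6* had the same groups at both ends, 397 ± 6.36 and 7724 ± 436 CPM, and its rapamycin and PDGF groups (1547 ± 173 and 1567 ± 36.1 CPM) overlapped. *Klf5* had no overlapping neighbours, from 65.1 ± 9.52 without PDGF to 584 ± 14.8 CPM with rapamycin. *Klf4* had none either and was highest with PDGF alone, at 1088 ± 46.5 CPM. *Klf7* was highest with rapamycin, at 748 ± 66.9 CPM.

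*Klf9*, *Klf13* and *Klf16* were, like *Klf4*, highest with PDGF alone, at 747 ± 28.4, 398 ± 18.6 and 856 ± 36.8 CPM, and lowest without it. For *Klf9* the PDGF, cycloheximide and TerminaTOR groups overlapped, for *Klf13* the rapamycin and cycloheximide groups, and for *Klf16* the TerminaTOR and rapamycin groups. *Klf3* was highest without PDGF (395 ± 15.3 CPM) and lowest with rapamycin (194 ± 26.3 CPM). All neighbouring groups of *Klf10* overlapped. The highest group mean was 31.4 times the lowest for *Klf2*, 19.5 times for *Klf6* and 8.97 times for *Klf5*, against 2.04 times for *Klf3* and 2.34 times for *Klf13*.

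**Figure D4:**
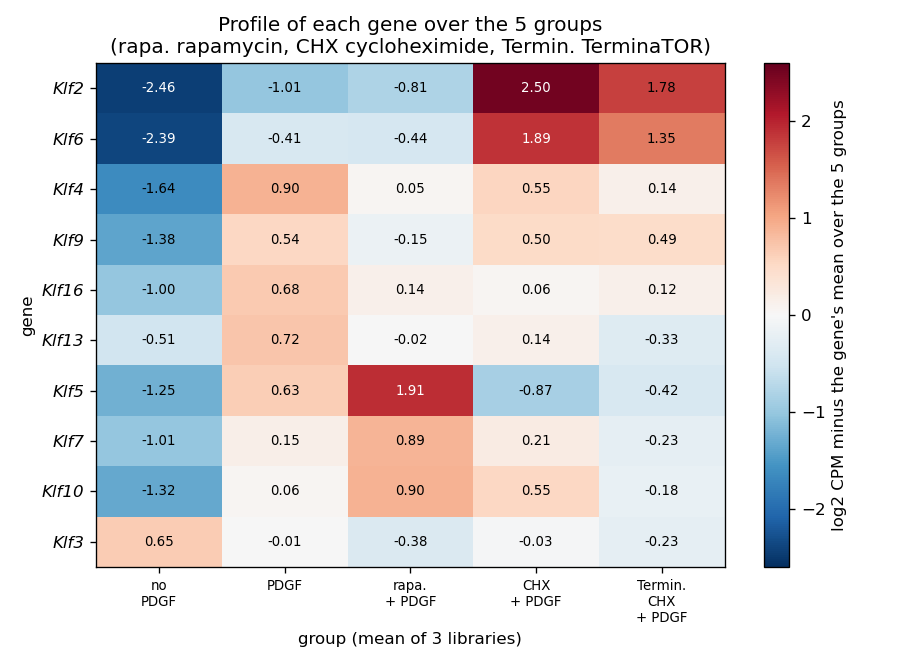
Log2 CPM of each KLF gene in the 5 groups (means of 3 libraries), each gene centred on its own mean over the groups; red is above and blue below that mean. *Klf2* and *Klf6* span from -2.46 and -2.39 without PDGF to 2.50 and 1.89 with cycloheximide, and *Klf3* alone is highest without PDGF, at 0.65.

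Profiles of the 5 group means were compared by the root mean square difference of centred log2 CPM, as a description over 5 points per gene. The closest pair among well-counted KLF genes was *Klf4* and *Klf9*, at 0.27, followed by *Klf13* and *Klf16*, at 0.31, whereas *Klf2* and *Klf6* differed by 0.46. *Klf7* and *Klf10* differed by 0.21, on few *Klf10* reads. Among 7587 candidate genes the nearest to *Klf2* were *Id3*, *Rccd1* and *Dnajb1* (0.23 to 0.34), and the nearest to *Klf6* were *Aloxe3*, *Id3* and *Egr1* (0.21 to 0.29). *Ccdc86*, *Il1rl1* and *Aff1* were nearest to *Klf5* (0.15 each), and *Zxdb*, *Npas4* and *Plk2* to *Klf7* (0.04 to 0.10). *Nfix*, *Itgb8* and *Tnrc6a* were nearest to *Klf3* (0.04 to 0.05). *Slc25a33*, *Oxnad1* and *Msmo1* were nearest to *Klf4* (0.20 to 0.24), and *Cbarp*, *Atp7a* and *Usp53* to *Klf9* (0.10 to 0.16). *Cdc42se1*, *Gp5* and *Zfp608* were nearest to *Klf13* (0.11 to 0.13), and *Matn2*, *Tmem41b* and *Las1l* to *Klf16* (0.14 each). The nearest to *Klf10* were *Mafk*, *Mir22hg* and *Mir1957a* (0.12 to 0.18).

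Between genes, levels were compared per kb of sequence that belongs to a single counted transcript. The scale is approximate because the reads near shared bases are lost. The bases of all transcripts of a gene were summed, also of those with few reads. This understates *Klf3*, with 3205 and 2406 of 8972 bases in retained-intron transcripts (1.75% and 0.312% of its reads). It also understates *Klf5*, with 1849 of 4198 bases in a transcript with 1.92% of its reads. Leaving *Klf3* and *Klf5* aside, *Klf6* (119 CPM per kb), *Klf16* (101) and *Klf4* (95.3) were highest without PDGF. *Klf2* (17.9) was low and *Klf10* (1.08) lowest. The *Klf10* value may be understated too, with 762 of its 1138 bases in a transcript with 22.4% of its reads. Its most counted transcript, with 42.9% of them, has only 72 such bases. With PDGF, *Klf4* (555) stood above *Klf6* (469) and *Klf16* (320). With cycloheximide *Klf6* reached 2310 CPM per kb and *Klf2* 564, and in TerminaTOR cells they stood at 1591 and 341. With rapamycin *Klf6* (463) and *Klf4* (307) led, and *Klf5* was at 139, an understated value.

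At the transcript level, 2 retained-intron transcripts of *Klf3* took 4.59% ± 1.31 of its reads with rapamycin (SD, n = 3, 101 reads) and 1.61% ± 0.333 with PDGF alone (49 reads). They took 2.50% ± 0.310 without PDGF, 1.10% ± 0.370 with cycloheximide and 1.11% ± 0.838 with TerminaTOR. The rapamycin libraries (3.81% to 6.10%) did not overlap those with PDGF alone (1.24% to 1.89%). A second *Klf5* transcript took 1.08% to 2.23% of that gene's reads on average in every group. Genes in the files that overlap *Klf3*, *Klf7*, *Klf9* or *Klf13*, antisense ones included, had at most 150 reads each in all libraries.

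AU-rich elements after the stop codon mark many unstable RNAs, so the pentamer ATTTA was counted there. The region was that of each gene's most counted complete coding transcript. It occurred at 0 to 2.87 per kb in the 10 genes, against a median of 1.45 per kb over 8087 genes with an annotated region. *Klf7* had the most (18 in 6266 bases, percentile 77.5) and *Klf10* none in 727 bases. *Klf2* had 1 in 737 bases (percentile 48.1) and *Klf6* 7 in 3111 bases (percentile 67.4). The stricter nonamer TTATTTATT, which contains the pentamer, occurred in *Klf5* and *Klf16* and in 9.14% of all genes.

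Few relatives of these 10 genes passed the filter on low counts. A low count here need not mean low expression, because reads shared by overlapping transcripts were mostly not counted. Of the other 7 mouse KLF genes, 2 passed it, *Klf11* and *Klf12*, and the remaining 5 had 0 to 20 reads in all libraries. *Klf11*, whose product also binds Sin3A, was not called with PDGF (-0.19 ± 0.09, edgeR adjusted p = 0.103) and was 1.89-fold higher with cycloheximide (0.92 ± 0.09, adjusted p = 2.61e-13). *Klf12*, of the CtBP-binding group, was lower with rapamycin (-0.67 ± 0.23, adjusted p = 0.0194) and was not called with PDGF, cycloheximide or TerminaTOR. Of the 9 SP factors, which share the zinc finger type and bind GC boxes, 3 passed the filter, *Sp1*, *Sp3* and *Sp4*, and none was called with PDGF. *Sp1* was slightly higher with rapamycin (0.21 ± 0.06) and cycloheximide (0.31 ± 0.06), and lower with TerminaTOR (-0.27 ± 0.06), and *Sp4* was higher with cycloheximide (0.37 ± 0.14). Over both lists 3 of the 5 genes tested were called with cycloheximide (40.6% of all genes), 2 with rapamycin (32.3%) and 1 with TerminaTOR (4.92%).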

How the data were processed

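RNA of 15 NIH3T3 libraries was measured by poly(A) RNA-seq with random hexamer priming, per the labels' protocols. The authors deposited unnormalized read counts, whole numbers, for 142446 mouse transcripts. HISAT2 2.2.1, HTSeq 0.9.1, R 4.1.0 and the build hg38 are named in the submitters' processing notes; hg38 is a human assembly that the mouse identifiers do not match. Mouse build, annotation and strand setting: not given in the sources used here. Sense and antisense reads at a locus therefore cannot be told apart.

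Here, 141536 transcripts were matched to GENCODE M21 (GRCm38) without version and summed to 55266 genes. The 910 unmatched held 0.0309% of counts and were left out. edgeR 4.0.16 in R 4.3.3 (filterByExpr, TMM, robust quasi-likelihood F test, 1 mean per group over all 15 libraries, 10 residual degrees of freedom) tested 10603 genes, with Benjamini-Hochberg adjustment and calls at an adjusted p under 0.05. The SE was back-calculated as the size of the log2 change over the root of F. The fit was tested on simulated data. Alternatives were DESeq2 1.42.0 and its size factors, library-size scaling, limma 3.58.1 (voom), no filter, only the compared groups, the replicate number as a block, the most counted transcript per gene, and leaving out each library. No pair of replicate libraries agreed within sampling noise.

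The members and lists were chosen with earlier results of these data known. The text names all 10 members, up to 3 called genes with the largest change per list and main comparison, and the 3 genes nearest in profile to each member (mean log2 CPM of at least 1, no predicted genes). Precision is limited by the 3 libraries per group and, for *Klf10*, by its reads. Promoter sequences and motif shares are from RefSeq (GRCm38.p6).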

Additional observations from a re-analysis of the deposited data

Results flagged for a closer look

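For 9 KLF genes the log2 effect of rapamycin differed from that of TerminaTOR in edgeR's test of the difference itself, with Benjamini-Hochberg adjustment over all genes. Where the rapamycin effect was the higher one, the difference was 0.92 for *Klf2*, 0.84 for *Klf5*, 0.52 for *Klf6*, 1.18 for *Klf7* and 1.77 for *Klf10*. Where it was the lower one, the difference was -0.44 for *Klf4*, -0.68 for *Klf9*, -0.27 for *Klf13* and -0.61 for *Klf16*. The *Klf10* value rests on 236 reads in 4 groups. Its call (adjusted p = 0.0244) was lost in 7 of 20 other settings, which ranged from 0.00859 to 0.125, 5 of them without 1 library. That of *Klf13* (adjusted p = 0.0415) was lost in 8 of 20, which ranged from 0.000398 to 0.202. For the other 7 genes the difference kept its call in all 20 settings.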

How the results depend on the processing

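Over 70 changes of the 10 genes in 7 comparisons, 1039 values were computed under other settings; 1007 kept their direction and their side of the threshold, 21 fell below it, 10 passed it and 1 turned. The one that turned was *Klf5* with cycloheximide and PDGF against no PDGF, at -0.002 with library-size scaling. The numbers of KLF genes called stayed within 1.5 times in every setting run. Library-size scaling put the median log2 change of all genes at -0.26 with PDGF, -0.10 with rapamycin, -0.13 with cycloheximide and 0.03 with TerminaTOR. It changed the genes called higher and lower from 2128 and 1794 to 1379 and 3111 with PDGF (from 54.3% to 30.7% higher). With rapamycin the share called higher went from 50.3% to 35.7%, with cycloheximide from 51.8% to 39% and with TerminaTOR from 47.7% to 60.5%. Against no PDGF the calls went from 2948 and 2708 to 1918 and 4153 with rapamycin and from 2611 and 2417 to 1615 and 4400 with cycloheximide. For TerminaTOR, 169 genes were called lower without a filter (273 with it), and 397 higher when only its 2 groups were fitted (249 otherwise). Depth limits *Klf10*, with 254 reads in all.

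Replicate numbers paired the libraries weakly if at all. Same-numbered libraries correlated by -0.06 to 0.17 in their deviations from the group means (median 0.02), over 0.1 in 4 of 30 pairs. Differently numbered ones correlated by -0.16 to 0.13 (median -0.01), over 0.1 in 2 of 60 pairs. Of the 15 libraries, 9 correlated best with their own number, although same-numbered pairs were the fewer (30 against 60). This count was not tested. With the replicate number as a block, 3 KLF genes were called higher with rapamycin in place of 2 (*Klf2*, edgeR adjusted p = 0.0473), and the counts in the other comparisons were the same.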
